A study of Mus musculus with 18 samples.

Results

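Cells labelled FatK5 were compared after 24 h with an shRNA against Foxd3 and after 24 h without it, on 3 arrays for each arm. These 6 arrays were taken by their column names from the 18 arrays of the series, in which FatK1, FatK5 and FatK7 name 3 mice. Probes with any signal printed in more than 7 significant digits on any of the 18 arrays were left out, which removed 43 of 45281 probes and left 45238. Both arms shared a genotype that includes Fapbl-Cre and Apc2lox14/+, on the C57Bl/6 background, at an age of 17 weeks. These are a Cre transgene and 1 conditional allele of the tumour suppressor Apc. The labels do not say more of the promoter that drives Cre. All 6 arrays carried the id of 1 mouse, number 5, with colon as the tissue and CDCP1+ tumour-inducing cells as the cell type. The cells had been taken from dissociated tumours with antibody-coated magnetic beads and kept with Dox, in both arms. The untreated arm was described only as having no shRNA, so a control hairpin is not among these arrays. Nothing in the labels says that the 3 arrays of an arm came from separate cultures, so what they replicate is not known. The p-values below reflect how much arrays of an arm varied. In the untreated arm that spread includes the split in sex-linked transcripts given below.

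Transcripts of fat, connective tissue and muscle fibres were followed through both arms. Adipocytes store triglyceride in lipid droplets coated by perilipins and CIDE proteins, take up fatty acids through Lpl and Cd36, and secrete Adipoq and Lep. Connective tissue is laid down by fibroblasts and tendon cells, which secrete fibrillar collagens and small leucine-rich proteoglycans. Muscle fibres are told apart by their myosin, troponin and calcium-pump isoforms, which differ between slow oxidative and fast glycolytic fibres.

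The 6 arrays had mean deposited signals of 180.9 to 257.2 and 17923 to 19246 probes detected (detection p below 0.05). Signals were normalised over these 6 arrays, and a normalised signal below is the resulting value on a linear scale after the added offset of 16 was taken off. Tests used log2 values, and a change below is the log2 difference of shFoxd3 minus untreated, given with the moderated SE of limma. The 18410 probes detected on at least 3 of the 6 arrays were tested.

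The arrays went against their label in cell type. All 15 fast fibre genes and all 12 slow fibre genes that the array held were detected on all 6 arrays. Of 14 intestinal epithelium genes, 3 were detected on all 6 arrays and 6 on none. Epcam, the epithelial adhesion molecule, had deposited signals of 6.31, 0.349 and -8.79 on the shFoxd3 arrays, against 1.32, 11.5 and 10.9 on the untreated arrays, and was detected on none. Vil1, the actin bundler of the brush border, was also detected on none, with signals of -6.47, 3.43 and -5.46 on shFoxd3 arrays, against 3.96, -8.17 and 1.19 on untreated arrays. The arrays are therefore called by their label FatK5 and not by the cell type given for them.

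The 6 arrays also did not look like those of 1 mouse. Xist, the RNA that coats the inactive X chromosome of female cells, had normalised signals of 793, 1104 and 1108 on shFoxd3 arrays, against 12.5, 790 and 6.51 on untreated arrays. Eif2s3y, a Y-linked translation factor, had 10.1, 7.53 and 5.78 on shFoxd3 arrays, against 756, 10.6 and 890 on untreated arrays. Kdm5d, a Y-linked histone demethylase, showed the same split, with 12.3, 9.71 and 11.8 on shFoxd3 arrays, against 76.1, 6.74 and 88.2 on untreated arrays. All shFoxd3 arrays and untreated array 2 thus carried Xist, and untreated arrays 1 and 3 carried the Y-linked transcripts. This split runs with the arm except on untreated array 2. Without that array, all shFoxd3 arrays carry Xist and the untreated arrays carry the Y-linked transcripts. A value given without untreated array 2 therefore cannot tell the arm from the split. With the split as a block, untreated array 2 is the only untreated array set against the shFoxd3 arrays. The part of the split in the results below was not tested in another way.

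Untreated array 2 stood apart from the other arrays in a further way. On the first principal component, which held 38% of the variance, it lay at 55.6, while the others lay between -19.5 and -0.5. It had 374 probes at least 1 log2 unit above the median of the others and 449 at least 1 unit below it, against 43 to 203 and 51 to 157 for the other arrays. It held the lowest value of the 6 arrays for 24.5% of the probes tested and the highest for another 24.5%. Most list medians are therefore also given without untreated array 2. So are most of the larger changes that this array moved by over 1.5 times, among genes given with all 6 values.

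Foxd3, the forkhead transcription factor that the shRNA targets, was not detected on any of the 6 arrays. Its deposited signals were 11.4, 6.47 and 0.188 on shFoxd3 arrays, against -2.5, 1.81 and -6.24 on untreated arrays. The difference of means was 8.31 (exact permutation p = 0.2, two-sided, over 20 splits, where 0.1 is the smallest p that 3 arrays against 3 allow). A knockdown was not detectable at this signal. Cdcp1, the surface protein used for the sort, had 4 probes, each detected on 0 of 6 arrays, with signals between -15.2 and 10.5 and exact permutation p of 0.2 to 0.8.

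Tiam1 was the 1 probe of 18410 (0.00543%) that passed an adjusted p of 0.05, and it was higher with shFoxd3. Tiam1 is a guanine nucleotide exchange factor that activates the small GTPase Rac. Its normalised signals were 454, 501 and 664 on shFoxd3 arrays, against 94.5, 69.5 and 66.4 on untreated arrays, so every shFoxd3 array lay above every untreated one. The change was 2.58 ± 0.20 (limma, Benjamini-Hochberg adjusted p = 0.00445, n = 3 each). Untreated array 2 lay with the other untreated arrays, and without it the change was 2.52 ± 0.21 (adjusted p = 0.0031), when 4 of 17579 probes were called (0.0228%, with 0.0171% higher and 0.00569% lower). The call was lost without shFoxd3 array 2 (2.62 ± 0.24, adjusted p = 0.0534) and without untreated array 3 (2.50 ± 0.22, adjusted p = 0.0711), while the size of the change held. The gene had 1 probe on the array, so no second probe could be set beside it. Among lower probes 0 (0%) were called. Before adjustment, p lay below 0.05 for 1268 probes (6.89%).

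Tiam1 was called in neither of the other 2 labels, and the difference between labels passed its own test. The labels also differed without shFoxd3. The fast fibre gene Mybpc2 had deposited signals of 11817, 4795 and 5679 on untreated FatK5 arrays, against 11.4, 19.6 and 8.75 on untreated FatK1 arrays. The acute-phase gene Orm2 had 5.08, -6.19 and -5.42 on untreated FatK5 arrays, against 2524, 2804 and 2308 on untreated FatK7 arrays. A change that differs by label cannot be told apart from one that differs by tissue. Deposited signals of Tiam1 on FatK1 arrays were 227, 192 and 126 with shFoxd3, against 91.3, 171 and 142 without. On FatK7 arrays they were 32.1, 19.1 and 14.6 with shFoxd3, against 29.9, 29.1 and 29 without. In a fit of all 18 arrays the Tiam1 change was 2.70 ± 0.22 in FatK5 (adjusted p = 5.41e-06), 0.23 ± 0.22 in FatK1 (adjusted p = 0.819) and -0.22 ± 0.22 in FatK7 (adjusted p = 0.893). The FatK5 change exceeded the FatK1 change by 2.47 ± 0.31 (adjusted p = 0.00484) and the FatK7 change by 2.92 ± 0.31 (adjusted p = 0.000194).

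RefSeq lists 2 start sites for Tiam1, both on the minus strand of chromosome 16. Which of their transcripts the 1 probe reports was not tested. The 250 bases before each start are printed because Tiam1 is the gene that was called. Capitals mark CCAAT, a box bound by the factor NF-Y, or its reverse complement ATTGG, searched on both strands. Of 32851 promoter windows of this length in RefSeq (GRCm38.p6), 33.8% hold at least 1 match. The first window spans chr16:89974700-89974949 and holds 0, and the second spans chr16:89818353-89818602 and holds 1.
Tiam1 start 1: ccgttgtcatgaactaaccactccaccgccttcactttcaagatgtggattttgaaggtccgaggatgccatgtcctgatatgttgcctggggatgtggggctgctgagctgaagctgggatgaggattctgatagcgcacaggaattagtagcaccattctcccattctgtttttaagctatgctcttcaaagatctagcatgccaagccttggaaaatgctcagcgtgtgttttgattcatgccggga
Tiam1 start 2: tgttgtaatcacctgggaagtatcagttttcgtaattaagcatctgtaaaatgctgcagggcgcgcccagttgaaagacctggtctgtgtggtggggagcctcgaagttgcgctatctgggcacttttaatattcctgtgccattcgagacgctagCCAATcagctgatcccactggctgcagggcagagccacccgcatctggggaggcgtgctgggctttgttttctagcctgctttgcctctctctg

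The genes next in order of p did not pass the adjustment over the 6 arrays, and were chosen for mention after their values were seen. Nup133, a scaffold protein of the nuclear pore, had 3 tested probes, and the brightest had 703, 403 and 977 on shFoxd3 arrays, against 200, 200 and 239 on untreated arrays. The 2 brighter probes had changes of 1.55 ± 0.28 and 1.58 ± 0.24 (adjusted p = 0.428 and 0.284). The third (adjusted p = 0.57) was detected on 3 shFoxd3 arrays and 1 untreated array. It passed the filter through the shFoxd3 arm, so no size of its change is given. The other probe was detected on 0 arrays. Hal, the histidine ammonia-lyase, had 46.1, 48.9 and 39.8 on shFoxd3 arrays, against 9.7, 9.04 and 8.6 on untreated arrays (adjusted p = 0.183). It was detected on 3 shFoxd3 and 0 untreated arrays, so it passed the filter through the shFoxd3 arm, and no size of change is given against the background level. Tbx1, a T-box transcription factor of the head muscles and heart outflow tract, had 72.8, 71.2 and 218 on shFoxd3 arrays, against 351, 875 and 704 on untreated arrays (-2.34 ± 0.42, adjusted p = 0.428). C4b, a complement component, had 32.7, 26 and 37.2 on shFoxd3 arrays, against 71.4, 95.9 and 110 on untreated arrays (-1.17 ± 0.21, adjusted p = 0.428). The arms did not overlap for any of these genes. Over all probes tested, 12.4% had arms that did not overlap, with 5.8% higher and 6.62% lower in shFoxd3.

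The provisional gene 1190007I07Rik had 69.7, 55.8 and 85 on shFoxd3 arrays, against 315, 226 and 309 on untreated arrays (-1.80 ± 0.20, adjusted p = 0.0665). Without untreated array 2 it fell by 1.94 ± 0.20 (adjusted p = 0.0145). In the fit of all 18 arrays it was called lower both in FatK1 (-1.87 ± 0.21, adjusted p = 0.000394) and in FatK5 (-1.89 ± 0.21, adjusted p = 0.000342). The FatK5 change was below that of FatK7 by -1.61 ± 0.29 (adjusted p = 0.0423).

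With the spread of all 18 arrays, 22 of 24789 probes (0.0887%) were called in FatK5, 15 higher (0.0605%) and 7 lower (0.0282%). They included Tiam1, the 3 Nup133 probes (1.63 and 1.65 for the 2 brighter ones, adjusted p = 0.0046 to 0.0234 for the 3), Hal (adjusted p = 0.0046) and Cep295, a centriole protein (1.15 ± 0.17, adjusted p = 0.0046). Among those called lower were Tbx1 (-2.46 ± 0.36, adjusted p = 0.0046), the galactosidase-like Glb1l2 (-1.54 ± 0.25, adjusted p = 0.0148) and C4b (-1.24 ± 0.23, adjusted p = 0.0381). That spread is pooled over 3 labels and is not that of FatK5 alone. No member of the fat, connective tissue or fibre lists was among the 22. Without untreated array 2 of FatK1 and FatK5 the count was 39 (24 higher and 15 lower).

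**Figure D1:**
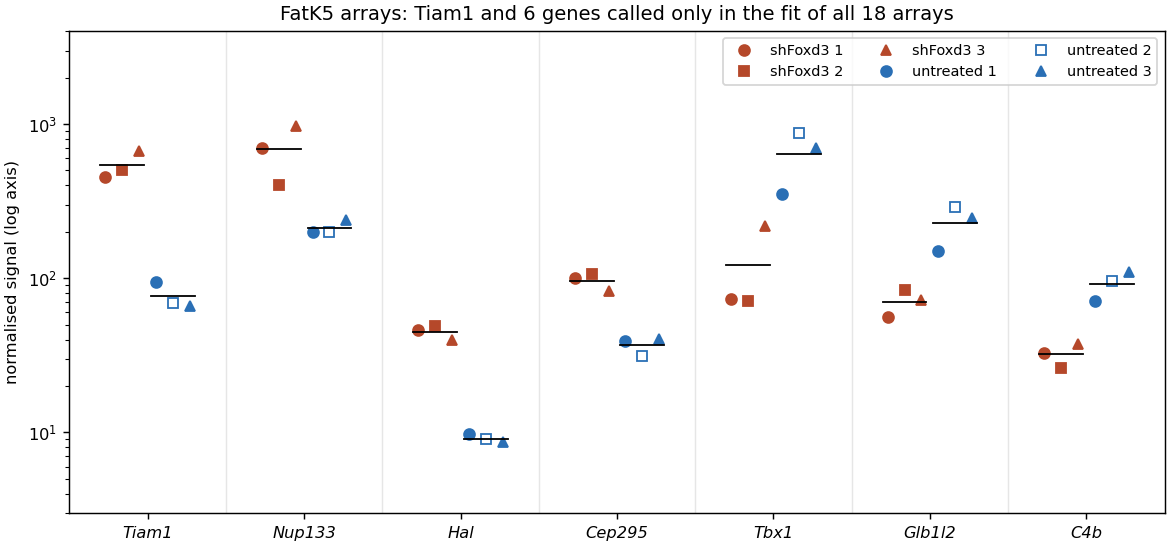
Normalised signal (log axis) of Tiam1, Nup133, Hal, Cep295, Tbx1, Glb1l2 and C4b on each FatK5 array, shFoxd3 arrays in red to the left and untreated arrays in blue to the right, with untreated array 2 as an open square and the arm means as black lines. Tiam1 lies at 454 to 664 on the shFoxd3 arrays and at 66.4 to 94.5 on the untreated arrays, and Tbx1 lies at 71.2 to 218 on the shFoxd3 arrays and at 351 to 875 on the untreated arrays.

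Most genes of the adipocyte list had lower means with shFoxd3, but none of them passed the test. Muscle also expresses several of these genes, and the part of fat cells in their values was not tested. Of 15 adipocyte genes tested, 0 were called, and 12 had a change below 0, with a median of -0.40 against -0.007 over all probes tested. An unadjusted p below 0.05 was reached by 8 of the 15, against 6.89% of all probes. The arms did not overlap for 7 of the 15, all lower in shFoxd3, against 6.62% of all probes. The median was -0.40 without untreated array 2. By array, the median of the list relative to the mean of the 6 arrays was -0.22, -0.12 and -0.21 on shFoxd3 arrays, against 0.08, 0.23 and 0.33 on untreated arrays. In these bulk samples fewer cells of a type and less RNA per cell cannot be told apart.

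Lipid droplet genes were at the low end of the fat list. Cidec, which enlarges lipid droplets, had normalised signals of 109, 131 and 53.3 on shFoxd3 arrays, against 165, 150 and 188 on untreated arrays (-0.76 ± 0.27, adjusted p = 0.709). Plin4, a perilipin that is also abundant in muscle, had 2206, 2046 and 2398 on shFoxd3 arrays, against 2469, 5308 and 3730 on untreated arrays (-0.72 ± 0.24, adjusted p = 0.709, and -0.45 without untreated array 2). Pnpla2, the triglyceride lipase, had 2507, 1861 and 1917 on shFoxd3 arrays, against 2053, 4820 and 3295 on untreated arrays (-0.62 ± 0.27, adjusted p = 0.713, and -0.32 without untreated array 2). The arms of Pnpla2 overlapped, and both it and Plin4 were highest on untreated array 2. Dgat2, which makes triglyceride, had 785, 991 and 983 on shFoxd3 arrays, against 993, 1564 and 1871 on untreated arrays (-0.63 ± 0.22, adjusted p = 0.709).

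Uptake genes, which muscle also expresses, showed smaller differences of the same sign. Slc2a4, the insulin-responsive glucose transporter, had 966, 1167 and 1230 on shFoxd3 arrays, against 1362, 1625 and 1855 on untreated arrays (-0.52 ± 0.16, adjusted p = 0.709). Lpl, the lipoprotein lipase, had 9061, 9307 and 9982 on shFoxd3 arrays, against 10549, 12542 and 13077 on untreated arrays (-0.35 ± 0.13, adjusted p = 0.709). Cd36, the fatty acid translocase, had 91.8, 103 and 76.5 on shFoxd3 arrays, against 109, 181 and 140 on untreated arrays (-0.57 ± 0.21, adjusted p = 0.709). The arms of these 3 genes did not overlap, nor did those of Pparg, the nuclear receptor that drives fat cell formation (-0.40 ± 0.18, adjusted p = 0.713). Without untreated array 2 the changes were -0.51 for Slc2a4, -0.32 for Lpl and -0.40 for Cd36. These were not all smaller than those of Plin4 (-0.45) and Pnpla2 (-0.32), though they were smaller than those of Cidec (-0.83) and Dgat2 (-0.57).

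The hormones made by fat cells were less uniform. Lep had 25.4, 22.8 and 30 on shFoxd3 arrays, against 64.8, 29.5 and 50.7 on untreated arrays (-0.58 ± 0.24, adjusted p = 0.709). Adipoq had 465, 511 and 249 on shFoxd3 arrays, against 613, 334 and 550 on untreated arrays (-0.30 ± 0.29, adjusted p = 0.851, and -0.56 without untreated array 2), with overlapping arms. Fabp4, the fatty acid binding protein of fat cells and capillaries, had 386, 344 and 297 on shFoxd3 arrays, against 311, 331 and 360 on untreated arrays (0.03 ± 0.16, adjusted p = 0.976). Car3, a carbonic anhydrase of fat and slow muscle, had 2250, 3539 and 4593 on shFoxd3 arrays, against 4320, 628 and 3279 on untreated arrays. Its change was 0.67 ± 0.60 (adjusted p = 0.84) and was -0.18 without untreated array 2 (adjusted p = 0.931). Scd1, a desaturase, differed by 0.23 ± 0.25, Acvr1c, an activin receptor, by -0.05 ± 0.21, and Agpat2, an acyltransferase, by -0.32 ± 0.23. Retn and Cebpa were detected on 0 arrays, Plin1 and Lipe on 1 array each, and Cfd was not analysed here.

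The defining genes of brown fat were at or near the detection limit. Ucp1, the uncoupling protein, was detected on 1 of 6 arrays, with normalised signals of 3.13, 19.2 and 5.13 on shFoxd3 arrays, against 5.55, 5.52 and 3.84 on untreated arrays. Cidea and Ppara were likewise detected on 1 array, and Elovl3 and Prdm16 on none. The 6 genes of that list that were tested had a median change of 0.22, with 0 called. Without untreated array 2 the median was 0.02 over 5 genes, because Dio2 was not tested in that fit. Several of them are also expressed in muscle. Cox8b, a subunit of cytochrome c oxidase found in muscle and brown fat, had 14491, 15100 and 13725 on shFoxd3 arrays, against 10132, 11831 and 11756 on untreated arrays (0.36 ± 0.12, adjusted p = 0.709), without overlap. Cox7a1, another such subunit, had 15382, 14169 and 13189 on shFoxd3 arrays, against 10764, 6394 and 14564 on untreated arrays (0.51 ± 0.26, adjusted p = 0.733, and 0.18 without untreated array 2). Pdk4, the kinase that turns off pyruvate dehydrogenase, had 1185, 2789 and 3015 on shFoxd3 arrays, against 5694, 1212 and 3849 on untreated arrays (-0.47 ± 0.53, adjusted p = 0.871, and -1.12 without untreated array 2). Fabp3, the muscle fatty acid binding protein, differed by 0.08 ± 0.16, and Kcnk3, a potassium channel, by -0.01 ± 0.19. Dio2, the thyroid hormone deiodinase, and Kcnk3 were each detected on 2 shFoxd3 arrays and 1 untreated array, near background. Dio2 thus passed the filter mainly through the shFoxd3 arm, so no size of its change is given, though the list median includes it.

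Genes of fatty acid synthesis showed no common shift. Of 10 tested, 0 were called and 5 had a change above 0, with a median of -0.05 that became 0.06 under median scaling of the arrays and 0.05 without untreated array 2. Fasn and Acaca, which carry out the core steps, were detected on 0 arrays. Acly, which supplies acetyl-CoA, had 1004, 878 and 837 on shFoxd3 arrays, against 789, 1302 and 956 on untreated arrays (-0.14 ± 0.19, adjusted p = 0.895). The extremes were Thrsp, a lipogenic nuclear protein (-0.46 ± 0.31, adjusted p = 0.779), and Elovl6, an elongase (0.24 ± 0.26, adjusted p = 0.866). Srebf1, the master factor of lipid synthesis, had 41.3, 18.8 and 46.4 on shFoxd3 arrays, against 34.6, 93.4 and 32.1 on untreated arrays (-0.37 ± 0.35, adjusted p = 0.847, and 0.01 without untreated array 2). The other members lay between -0.20 and 0.16, and they were Acss2, Me1, Mlxipl, Elovl5, Slc25a1 and Pnpla3.

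**Figure D2:**
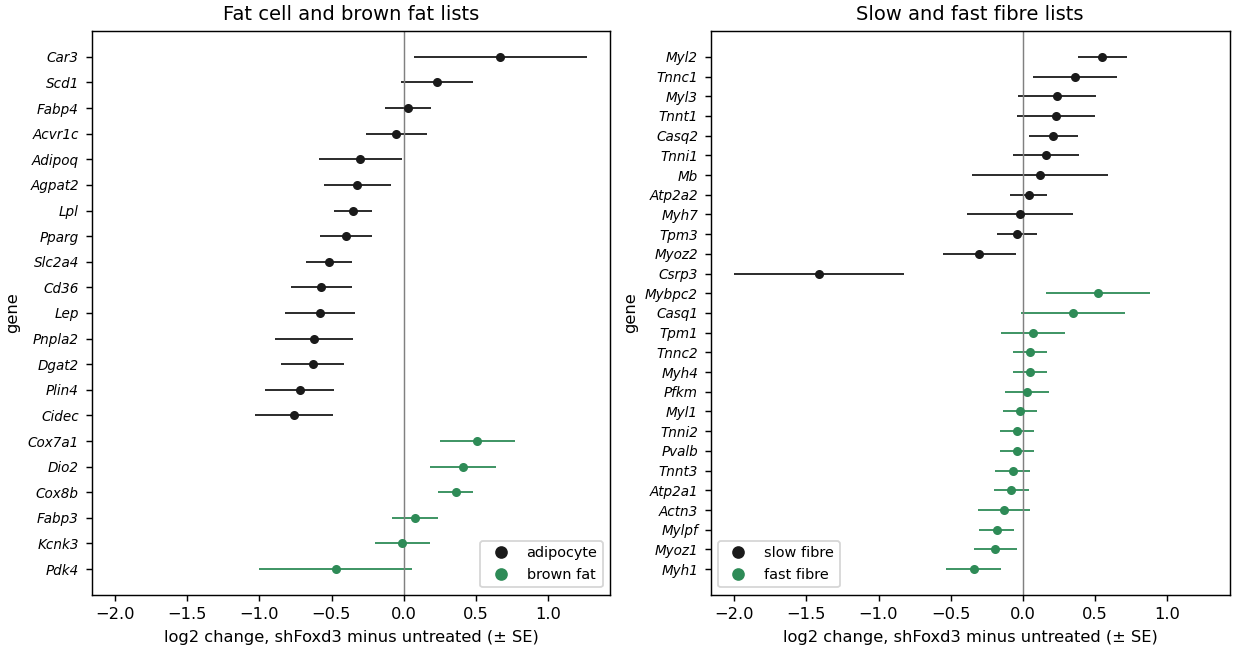
Change of each tested gene of the adipocyte and brown fat lists (left) and of the slow and fast fibre lists (right), as log2 shFoxd3 minus untreated with its SE as the bar. In the adipocyte list 12 of 15 genes lie below 0, while the 15 fast fibre genes lie between -0.34 and 0.52 and Csrp3 of the slow list lies at -1.41.

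Connective tissue transcripts had higher means with shFoxd3, and for most of them 1 untreated array was the lowest of the 6. All 20 genes of the fibrillar collagen and matrix list were detected on all 6 arrays and had a change above 0, with a median of 0.43, but 0 were called. Untreated array 2 had the lowest value of the 6 arrays for 17 of the 20, against 24.5% of all probes tested. Without that array the median was -0.06, and 8 of the 20 lay above 0. With the Xist split as a block, which sets the shFoxd3 arrays against untreated array 2 alone, the median was 1.42 and 11 were called higher. That fit called 3.35% of all probes, 1.9% higher and 1.46% lower. By array, the median of the list was -0.05, 0.33 and 0.47 on shFoxd3 arrays, against 0.22, -1.21 and 0.29 on untreated arrays.

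The major fibril collagens showed this most plainly. Col1a1, the main chain of type I collagen, had normalised signals of 4761, 8598 and 5722 on shFoxd3 arrays, against 6772, 746 and 8779 on untreated arrays (0.79 ± 0.75, adjusted p = 0.848). Col1a2, its partner chain, had 2371, 3324 and 3439 on shFoxd3 arrays, against 2187, 344 and 3530 on untreated arrays (1.10 ± 0.67, adjusted p = 0.762). Col3a1, the collagen of reticular fibres, had 2648, 2607 and 3606 on shFoxd3 arrays, against 4358, 468 and 2811 on untreated arrays (0.69 ± 0.65, adjusted p = 0.844). Untreated arrays 1 and 3 lay among the shFoxd3 arrays or above them for these 3 genes, except that Col1a2 on untreated array 1 lay just below. Without untreated array 2 the changes were -0.32, 0.11 and -0.26.

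The minor and microfibril collagens shared untreated array 2 as the lowest array. Col5a1, which nucleates type I fibrils, had 829, 821 and 1029 on shFoxd3 arrays, against 938, 292 and 854 on untreated arrays (0.51 ± 0.37, adjusted p = 0.802). Col5a2, its partner, differed by 0.31 ± 0.43. Col6a1, of the beaded filaments around muscle fibres, had 2866, 3736 and 3914 on shFoxd3 arrays, against 3530, 1312 and 3764 on untreated arrays (0.42 ± 0.35, adjusted p = 0.833), and Col6a2 differed by 0.61 ± 0.49. Without untreated array 2 the changes of Col5a1, Col5a2, Col6a1 and Col6a2 were -0.01, -0.24, -0.07 and -0.10.

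Among proteoglycans, Lum, which regulates fibril width, had 751, 770 and 879 on shFoxd3 arrays, against 898, 202 and 498 on untreated arrays (0.80 ± 0.41, adjusted p = 0.733, and 0.25 without untreated array 2). Bgn, which binds collagen and growth factors, had 1456, 2964 and 2324 on shFoxd3 arrays, against 1634, 688 and 2087 on untreated arrays (0.69 ± 0.39, adjusted p = 0.746, and 0.22 without untreated array 2). Dcn had 14072, 14755 and 14491 on shFoxd3 arrays, against 15635, 10927 and 13189 on untreated arrays (0.14 ± 0.15, adjusted p = 0.864), and Ogn differed by 0.15 ± 0.24.

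The arms did not overlap for 2 of the 20 matrix genes, against 5.8% of all probes that were higher without overlap, so this count stands near the background. Dpt, a collagen-binding matrix protein, had 880, 874 and 758 on shFoxd3 arrays, against 708, 298 and 591 on untreated arrays (0.72 ± 0.27, adjusted p = 0.709). Serpinh1, the collagen chaperone of the endoplasmic reticulum, had 2874, 2932 and 2635 on shFoxd3 arrays, against 2571, 1258 and 1648 on untreated arrays (0.68 ± 0.23, adjusted p = 0.709). Without untreated array 2 their changes were 0.36 and 0.44. Eln, the core of elastic fibres, had 423, 381 and 554 on shFoxd3 arrays, against 367, 383 and 538 on untreated arrays (0.08 ± 0.20), and Mgp, an inhibitor of calcification, differed by 0.37 ± 0.22. In both of these untreated array 2 was not the lowest. The remaining members lay between 0.15 and 0.45, and were Sparc, Fn1, Postn, Lox and Timp1. Col6a3 and Fbn1 were not analysed here.

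Tendon transcripts shared the low values of untreated array 2. Of 10 tested, 0 were called and 9 had a change above 0, with a median of 0.59, and 0.17 without untreated array 2. That array held the lowest value for 9 of the 10. The list median by array was -0.15, 0.84 and 0.27 on shFoxd3 arrays, against 0.07, -1.33 and 0.24 on untreated arrays, so shFoxd3 array 2 was the highest. With the Xist split as a block, a fit that rests on untreated array 2 alone for its untreated side and called 1.9% of all probes higher, the median was 1.62 and 4 were called higher.

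Kera, a small keratan sulfate proteoglycan, had 598, 999 and 677 on shFoxd3 arrays, against 556, 30.1 and 485 on untreated arrays, without overlap (1.68 ± 0.79, adjusted p = 0.716, and 0.50 without untreated array 2). Chad, which anchors cells to collagen, had 424, 1345 and 459 on shFoxd3 arrays, against 529, 77.8 and 477 on untreated arrays (1.17 ± 0.65, adjusted p = 0.746, and 0.34 without untreated array 2). Comp, a pentameric glycoprotein of tendon and cartilage, had 75.8, 328 and 56 on shFoxd3 arrays, against 66.2, 7.51 and 108 on untreated arrays (1.08 ± 0.68, adjusted p = 0.768, and 0.38 without untreated array 2). In Chad and Comp 1 shFoxd3 array, number 2, lay far above the rest.

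Fmod, a collagen-binding proteoglycan, had 436, 850 and 378 on shFoxd3 arrays, against 421, 93.6 and 688 on untreated arrays (0.73 ± 0.59, adjusted p = 0.826, and -0.05 without untreated array 2). Tnc, a matrix glycoprotein of loaded tendon, had 129, 428 and 434 on shFoxd3 arrays, against 197, 35 and 402 on untreated arrays (0.89 ± 0.70, adjusted p = 0.818, and 0.04 without untreated array 2). Scx, the transcription factor of tendon cells, had 104, 166 and 160 on shFoxd3 arrays, against 107, 144 and 201 on untreated arrays (-0.05 ± 0.25, adjusted p = 0.974), so it did not share the low value. Col14a1, a fibril-associated collagen, differed by 0.45 ± 0.23, the homeobox factor Mkx by 0.38 ± 0.28, and the thrombospondins Thbs4 and Thbs2 by 0.37 ± 0.30 and 0.25 ± 0.28. Tnmd was detected on 1 array, and Col12a1 was not analysed here.

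**Figure D3:**
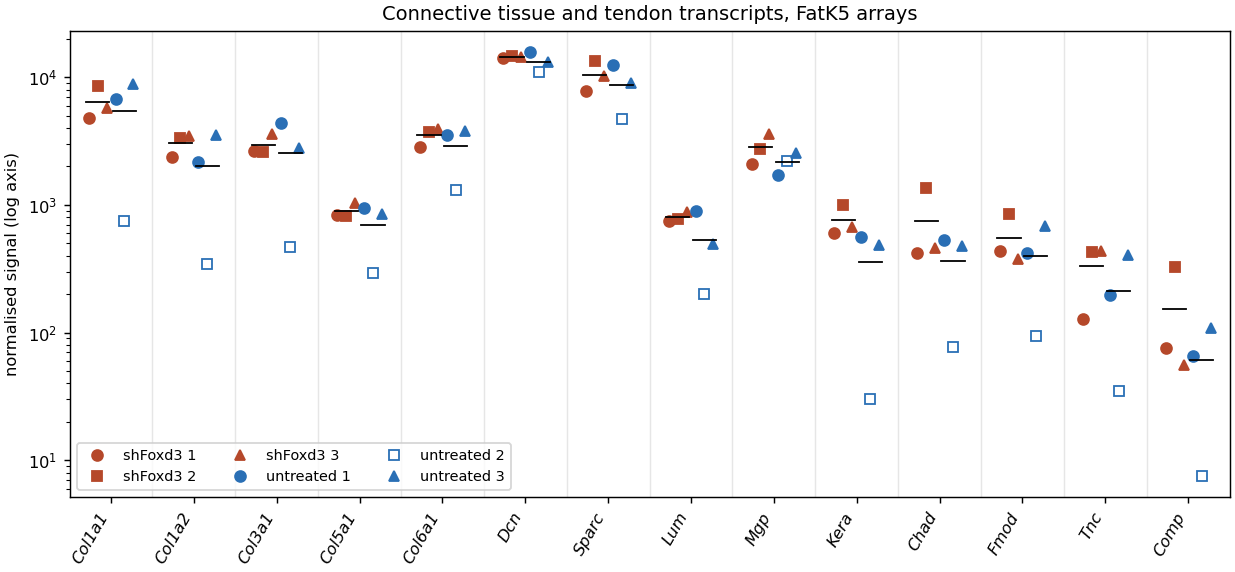
Normalised signal (log axis) of 14 connective tissue and tendon genes on each FatK5 array, shFoxd3 arrays in red to the left and untreated arrays in blue to the right, with untreated array 2 as an open square and the arm means as black lines. Untreated array 2 is the lowest of the 6 for Col1a1 (746), Col1a2 (344), Col3a1 (468) and Kera (30.1), while untreated arrays 1 and 3 lie near the shFoxd3 arrays.

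The 250 bases before the starts of Col1a2 and Kera are shown because both genes were low on untreated array 2, with capitals again for CCAAT or ATTGG. Col1a2 (plus strand, chr6:4505368-4505617) holds 1 match and Kera (plus strand, chr10:97606955-97607204) holds 3.
Col1a2: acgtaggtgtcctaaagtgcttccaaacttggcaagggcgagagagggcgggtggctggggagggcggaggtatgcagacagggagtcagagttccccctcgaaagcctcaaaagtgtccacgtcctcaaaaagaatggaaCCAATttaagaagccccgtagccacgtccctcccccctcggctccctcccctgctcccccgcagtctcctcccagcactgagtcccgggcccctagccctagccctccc
Kera: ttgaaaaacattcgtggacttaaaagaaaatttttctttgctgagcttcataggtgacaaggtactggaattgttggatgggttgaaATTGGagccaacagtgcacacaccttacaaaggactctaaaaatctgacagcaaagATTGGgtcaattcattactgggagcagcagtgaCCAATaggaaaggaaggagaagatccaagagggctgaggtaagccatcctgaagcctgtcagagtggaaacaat

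Basement membrane holds type IV collagen, laminins and nidogens. Of 11 tested, 0 were called and 8 had a change above 0, with a median of 0.12, and -0.12 without untreated array 2, which was the lowest array for 8 of them. Col15a1, which links basement membrane to fibrils, had 725, 577 and 572 on shFoxd3 arrays, against 725, 236 and 471 on untreated arrays (0.50 ± 0.33, adjusted p = 0.777, and 0.08 without untreated array 2). Col4a1, of the type IV network, had 4790, 3891 and 4604 on shFoxd3 arrays, against 5569, 3082 and 4664 on untreated arrays (0.03 ± 0.21, adjusted p = 0.98). Its partner Col4a2 had 2733, 1918 and 2187 on shFoxd3 arrays, against 2250, 2266 and 2866 on untreated arrays (-0.12 ± 0.17, adjusted p = 0.899). The laminin chains Lama2, Lamb1, Lamb2 and Lamc1, the nidogens Nid1 and Nid2, the proteoglycan Hspg2 and Col18a1 lay between -0.09 and 0.41. Lama4 was detected on 0 arrays.

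Enzymes that modify collagen, a list beside the collagens, gave 0 calls among 14 tested, with a median of 0.21, and 0.11 without untreated array 2. P4ha1, the prolyl hydroxylase subunit, had 151, 141 and 102 on shFoxd3 arrays, against 123, 38.2 and 81 on untreated arrays (0.70 ± 0.32, adjusted p = 0.713, and 0.33 without untreated array 2). Pcolce, which enhances removal of the procollagen tail, had 665, 654 and 762 on shFoxd3 arrays, against 768, 181 and 512 on untreated arrays (0.71 ± 0.41, adjusted p = 0.755, and 0.14 without untreated array 2). The crosslinking enzyme Loxl1 and the proline isomerase Ppib differed by 0.38 ± 0.20 and 0.40 ± 0.19.

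Fibroblast markers were lowest on untreated array 2 for 7 of 10 genes tested, and 0 were called, with a median of 0.29, and 0.16 without that array. Their summed normalised signal was 3111 to 3249 on shFoxd3 arrays, against 1904 to 3149 on untreated arrays. Thy1, a surface glycoprotein of fibroblasts, had 622, 642 and 809 on shFoxd3 arrays, against 600, 123 and 450 on untreated arrays (1.04 ± 0.45, adjusted p = 0.713, and 0.39 without untreated array 2). Pdgfra, the receptor that marks fibro-adipogenic cells, had 614, 683 and 530 on shFoxd3 arrays, against 561, 415 and 517 on untreated arrays (0.29 ± 0.17, adjusted p = 0.755). Pi16 differed by 0.62 ± 0.32, and S100a4, which leukocytes also express, by 0.81 ± 0.24. The part of fibroblast content in the collagen values was not tested.

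Fast fibre transcripts were nearly level between the arms after normalisation. Of 15 genes tested, 0 were called and 6 had a change above 0. Their median change was -0.04, and it was 0.11 under median scaling of the arrays and -0.08 without untreated array 2. Myh4, the myosin heavy chain of type IIb fibres, had normalised signals of 25688, 25220 and 23189 on shFoxd3 arrays, against 23997, 23189 and 24227 on untreated arrays (0.05 ± 0.12, adjusted p = 0.943). Pvalb, the calcium buffer of fast fibres, had 24850, 23870 and 24227 on shFoxd3 arrays, against 23798, 26174 and 25121 on untreated arrays (-0.04 ± 0.12, adjusted p = 0.955). Such signals lay at the top of the scale. Quantile normalisation gives each array the same set of values, so on each array 57 probes exceeded 20000 and the highest was 29245. Before it, the deposited Myh4 signals were 24185, 29020 and 26174 on shFoxd3 arrays, against 22149, 23823 and 20420 on untreated arrays, without overlap.

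Myh1, the myosin of type IIx fibres, had 12973, 10668 and 17667 on shFoxd3 arrays, against 14662, 17553 and 19440 on untreated arrays (-0.34 ± 0.19, adjusted p = 0.75), and a further probe gave -0.57 ± 0.29. Mybpc2, the fast myosin-binding protein C, had 13361, 12179 and 7774 on shFoxd3 arrays, against 13802, 4512 and 6854 on untreated arrays (0.52 ± 0.36, adjusted p = 0.792, and 0.15 without untreated array 2). Casq1, the calcium-binding protein of the fast sarcoplasmic reticulum, had 2607, 2682 and 2802 on shFoxd3 arrays, against 3213, 1010 and 2893 on untreated arrays (0.35 ± 0.36, adjusted p = 0.859). The low value of Casq1 was again that of untreated array 2, and without it the change was -0.18. The arms did not overlap for Mylpf, the fast regulatory light chain (-0.18 ± 0.12, adjusted p = 0.784). The light chain Myl1, the troponins Tnnt3, Tnni2 and Tnnc2, tropomyosin Tpm1, Actn3, the calcium pump Atp2a1, the Z-disc protein Myoz1 and the glycolytic Pfkm lay between -0.19 and 0.07. Myh2 was not analysed here.

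Slow fibre transcripts had changes of either sign. Of 12 tested, 0 were called and 8 had a change above 0, with a median of 0.14, and 0.04 without untreated array 2. Myl2, the regulatory light chain of slow and cardiac muscle, had 6533, 5261 and 4820 on shFoxd3 arrays, against 3313, 3457 and 4557 on untreated arrays, without overlap (0.55 ± 0.17, adjusted p = 0.709). Myl3, the slow essential light chain, had 3466, 3295 and 2106 on shFoxd3 arrays, against 2183, 1828 and 3645 on untreated arrays (0.24 ± 0.27, adjusted p = 0.87). Tnnt1, the slow troponin T, had 2893, 2353 and 2356 on shFoxd3 arrays, against 1796, 1552 and 3512 on untreated arrays (0.23 ± 0.27, adjusted p = 0.875). Untreated array 3 was the highest of the 6 in Myl3 and Tnnt1, so their arms overlapped.

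Myh7, the slow myosin heavy chain, had 141, 86.7 and 34.4 on shFoxd3 arrays, against 58.3, 92.9 and 88.8 on untreated arrays (-0.02 ± 0.37, adjusted p = 0.995). Csrp3, a stress-responsive LIM protein of the Z-disc, had 1419, 1245 and 4530 on shFoxd3 arrays, against 2648, 13040 and 4413 on untreated arrays (-1.41 ± 0.59, adjusted p = 0.713, and -0.76 without untreated array 2). Mb, the oxygen store myoglobin, had 10456, 16060 and 23997 on shFoxd3 arrays, against 20693, 6334 and 24055 on untreated arrays (0.12 ± 0.47, adjusted p = 0.967, and -0.49 without untreated array 2). Csrp3 was highest and Mb lowest on untreated array 2. Tnnc1, the slow troponin C, differed by 0.36 ± 0.29, and Tnni1, Tpm3, Atp2a2, Casq2 and Myoz2 lay between -0.30 and 0.21.

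**Figure D4:**
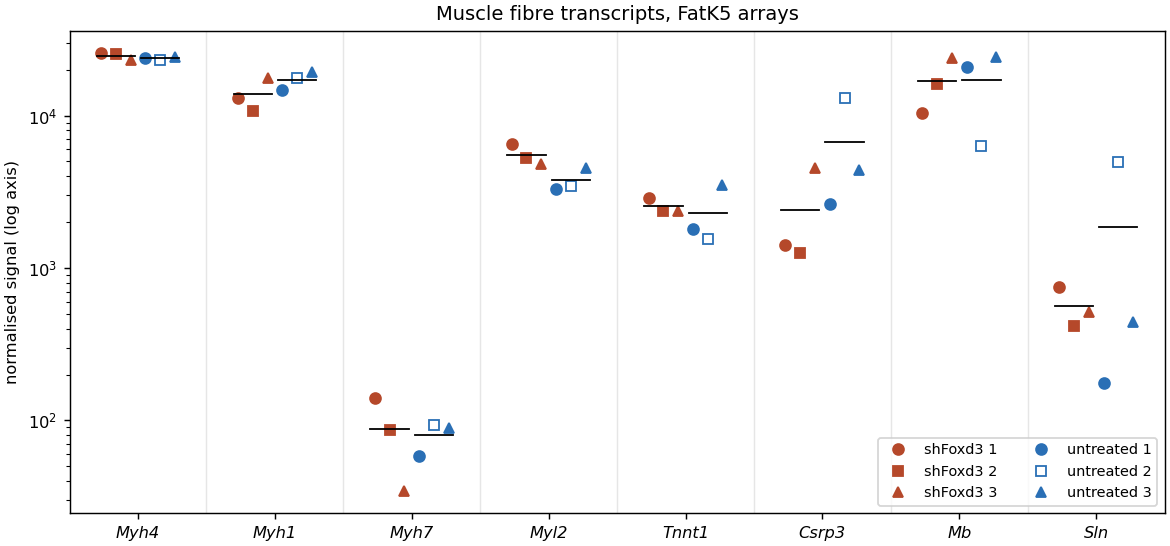
Normalised signal (log axis) of fibre type genes and of Sln on each FatK5 array, shFoxd3 arrays in red to the left and untreated arrays in blue to the right, with untreated array 2 as an open square and the arm means as black lines. Myh4 lies at 23189 to 25688 on the shFoxd3 arrays and at 23189 to 24227 on the untreated arrays, while Csrp3 reaches 13040 and Mb drops to 6334 on untreated array 2.

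Transcripts of developing fibres and satellite cells gave 0 calls among 9 tested, with a median of -0.02. Myog, the differentiation factor of myoblasts, had 83.9, 75.5 and 47.9 on shFoxd3 arrays, against 52.7, 42 and 36.8 on untreated arrays (0.49 ± 0.23, adjusted p = 0.713). Myh8, the perinatal myosin, had 656, 510 and 369 on shFoxd3 arrays, against 314, 551 and 403 on untreated arrays (0.26 ± 0.25, adjusted p = 0.844, and 0.47 without untreated array 2). Cdh15, a cadherin of satellite cells, had 190, 167 and 195 on shFoxd3 arrays, against 218, 404 and 194 on untreated arrays (-0.46 ± 0.25, adjusted p = 0.746, and -0.15 without untreated array 2). Myod1, Myf5, Myf6, the fusion protein Mymk, Des and Ncam1 lay between -0.41 and 0.38. Pax7, which defines satellite cells, was detected on 0 arrays, Pax3 on 1, and Myh3 was not analysed here.

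Genes of muscle atrophy and glucocorticoid response had lower means with shFoxd3 in all 14 members tested, but 0 were called. The median was -0.52, and it was -0.43 without untreated array 2, where 4 of 14 lay above 0. Untreated array 2 held the highest value for 13 of the 14, and shFoxd3 array 1 the lowest for 10. An unadjusted p below 0.05 was reached by 8, against 6.89% of all probes, and the arms did not overlap for 6, against 6.62% of all probes that were lower without overlap. By array the list median was -0.69, -0.13 and -0.09 on shFoxd3 arrays, against -0.14, 0.97 and 0.16 on untreated arrays.

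Foxo1, the transcription factor of the atrophy programme, had 115, 181 and 142 on shFoxd3 arrays, against 185, 434 and 331 on untreated arrays (-0.98 ± 0.29, adjusted p = 0.709). Trim63, a ubiquitin ligase that marks myosin for breakdown, had 87.8, 133 and 111 on shFoxd3 arrays, against 185, 195 and 160 on untreated arrays (-0.64 ± 0.19, adjusted p = 0.709). Fkbp5, a glucocorticoid receptor co-chaperone and target, had 74.4, 109 and 115 on shFoxd3 arrays, against 117, 447 and 273 on untreated arrays (-1.19 ± 0.39, adjusted p = 0.709, and -0.78 without untreated array 2). The clock gene Per1 had 294, 417 and 444 on shFoxd3 arrays, against 546, 1396 and 564 on untreated arrays (-0.97 ± 0.33, adjusted p = 0.709, and -0.53 without untreated array 2). The arms of these 4 genes did not overlap.

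Circadian clock genes gave 0 calls among 12, with a median of -0.17 and of -0.05 without untreated array 2, which held the highest value for 9. Nr1d1, a repressor of the clock, had 133, 125 and 92 on shFoxd3 arrays, against 131, 388 and 141 on untreated arrays (-0.68 ± 0.36, adjusted p = 0.734, and -0.21 without untreated array 2). Dbp, a clock output factor, had 220, 191 and 261 on shFoxd3 arrays, against 202, 621 and 233 on untreated arrays (-0.45 ± 0.36, adjusted p = 0.822, and 0.03 without untreated array 2). Both were highest on that array, and the other arrays lay close together. Per2 and Ciart differed by -0.47 ± 0.33 and -0.40 ± 0.29.

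Immediate early genes gave 0 calls among 16, with a median of -0.15, and -0.27 without untreated array 2. Btg2, an antiproliferative gene, had 27.7, 29.7 and 34.7 on shFoxd3 arrays, against 53.9, 85.4 and 59.4 on untreated arrays (-0.80 ± 0.21, adjusted p = 0.709), without overlap. Atf3, a stress-induced transcription factor, had 133, 80.8 and 179 on shFoxd3 arrays, against 242, 176 and 270 on untreated arrays (-0.78 ± 0.27, adjusted p = 0.709). Junb differed by -1.06 ± 0.41 and Egr1 by -0.48 ± 0.24. Heat shock genes gave 0 calls among 14 (median -0.09), and those of lowest p were the small heat shock proteins Hspb7 (-1.10 ± 0.39), Hspb6 (-0.28 ± 0.13) and Hspb1 (-0.43 ± 0.22) and the co-chaperone Bag3 (-0.31 ± 0.15).

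Energy metabolism lists also gave 0 calls. The 19 oxidative phosphorylation genes had a median of 0.12, and -0.02 without untreated array 2, which was the lowest for 15 of them. In 3 of them, the complex I subunits Ndufa1 (0.36 ± 0.13) and Ndufb5 (0.35 ± 0.15) and the oxidase subunit Cox7a2 (0.36 ± 0.15), the arms did not overlap, against 5.8% of all probes that were higher without overlap. Ndufb8 differed by 0.23 ± 0.17. The 16 glycolysis and glycogen genes had a median of 0.08, and -0.06 without that array. Gys1, the glycogen synthase of muscle, had 116, 101 and 94.6 on shFoxd3 arrays, against 135, 164 and 168 on untreated arrays (-0.52 ± 0.17, adjusted p = 0.709). Gpd1, Ugp2 and Pgam2 differed by 0.62 ± 0.31, -0.24 ± 0.13 and 0.35 ± 0.24.

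The 15 genes of fatty acid oxidation had a median of -0.19, and -0.22 without untreated array 2, where none lay above 0. Acadl, the long-chain acyl-CoA dehydrogenase, had 778, 721 and 522 on shFoxd3 arrays, against 930, 1289 and 968 on untreated arrays (-0.65 ± 0.19, adjusted p = 0.709). The medium-chain enzyme Acadm and the very-long-chain enzyme Acadvl differed by less (-0.20 ± 0.12 and -0.19 ± 0.12). The arms of these 3 genes did not overlap, against 6.62% of all probes that were lower without overlap. Eci1, an isomerase of the same pathway, differed by -0.27 ± 0.18.

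Calcium handling genes gave 0 calls among 14, with a median of -0.08. Ryr1, the calcium release channel of skeletal muscle, had 9135, 9474 and 8165 on shFoxd3 arrays, against 11371, 13105 and 12542 on untreated arrays, without overlap (-0.47 ± 0.13, adjusted p = 0.709). Cacng1, a subunit of the voltage sensor, had 996, 1042 and 1171 on shFoxd3 arrays, against 1325, 2104 and 1251 on untreated arrays (-0.50 ± 0.20, adjusted p = 0.709, and -0.27 without untreated array 2). Sypl2 and Hrc differed by 0.29 ± 0.27 and 0.15 ± 0.14. Denervation and synapse genes gave 0 calls among 9, with a median of -0.10 that was 0.06 without untreated array 2, with Chrng, the fetal receptor subunit, at 0.67 ± 0.27, Ache at -0.35 ± 0.18, Runx1 at 0.50 ± 0.26 and Chrna1 at -0.32 ± 0.26. Interferon genes gave 0 calls among 10 (median -0.18, and -0.26 without untreated array 2), with Psmb8, Rsad2, Oasl2 and Gbp2 between -0.37 and -0.22.

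Cell cycle genes had the highest median among the pathway lists, 0.67 over 7 genes tested, all above 0, with 0 called, and 0.51 without untreated array 2. Aurka, a mitotic kinase, had 85.6, 111 and 81.2 on shFoxd3 arrays, against 76, 53.5 and 29.4 on untreated arrays, without overlap (0.71 ± 0.27, adjusted p = 0.709). Top2a, the topoisomerase of dividing cells, had 11.2, 59.4 and 28.9 on shFoxd3 arrays, against 23.5, 8.38 and 7.73 on untreated arrays (0.67 ± 0.36, adjusted p = 0.74). Cdk1 and Mcm5 differed by 0.69 ± 0.30 and 0.73 ± 0.34. Of the 12 genes on the array, 7 passed the filter and 6 were detected on all 6 arrays. The highest value was that of shFoxd3 array 2 in 6 of the 7 tested, among them the 4 genes named.

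The marker lists of other cell types showed large differences between arrays of 1 arm. Neutrophil genes differed far more between arrays of 1 arm than between the arms. S100a8, a calcium-binding protein of neutrophils, had deposited signals of 201, 16481 and 2831 on shFoxd3 arrays, against 175, 15628 and 1567 on untreated arrays. Mpo, the peroxidase of their granules, had 10.6, 2434 and 68.7 on shFoxd3 arrays, against 2.05, 237 and 22.2 on untreated arrays. The summed normalised signal of the 8 neutrophil genes tested ran from 447 to 32706 on shFoxd3 arrays, against 357 to 25711 on untreated arrays, with 0 called. On both arms array 1 was the lowest and array 2 the highest. The list median of 0.58 was 1.90 without untreated array 2. The named neutrophil genes Elane, Mpo, Ltf and Camp differed by 1.41 ± 0.91, 1.42 ± 1.38, 0.91 ± 1.54 and 0.78 ± 1.58.

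Schwann cell genes, which make myelin, were highest on shFoxd3 array 3 and untreated array 2. Mbp, myelin basic protein, had normalised signals of 621, 450 and 2795 on shFoxd3 arrays, against 954, 2582 and 1438 on untreated arrays (-0.71 ± 0.60, adjusted p = 0.833, and -0.34 without untreated array 2). The 5 genes tested had a median of -0.58 (-0.33 without untreated array 2) with 0 called, and a summed signal of 2601 to 10125 on shFoxd3 arrays, against 4759 to 8408 on untreated arrays. Sox10, Ncmap and Cnp differed by -0.58 ± 0.32, -0.83 ± 0.55 and -0.49 ± 0.39. Erythroid genes gave 0 calls among 4, with a median of 0.12 that was 0.51 without untreated array 2. Alas2, of haem synthesis in red cell precursors, had 523, 611 and 456 on shFoxd3 arrays, against 289, 1880 and 310 on untreated arrays (-0.08 ± 0.58, and 0.78 without untreated array 2). Slc4a1, Hbb-bt and Hba-a1 differed by 1.19 ± 0.73, 0.14 ± 0.13 and 0.11 ± 0.14.

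Macrophage genes gave 0 calls among 10, with a median of 0.21 and a summed normalised signal of 1684 to 3107 on shFoxd3 arrays, against 1510 to 1881 on untreated arrays. Adgre1, the F4/80 antigen, had 162, 156 and 108 on shFoxd3 arrays, against 113, 96.1 and 70.7 on untreated arrays (0.53 ± 0.22, adjusted p = 0.712), and C1qa, Csf1r and Lyz2 differed by -0.36 ± 0.21, 0.29 ± 0.21 and 0.43 ± 0.33. Endothelial genes gave 0 calls among 12, with a median of -0.21 and sums of 6436 to 6961 on shFoxd3 arrays, against 6891 to 8592 on untreated arrays. Pecam1, an adhesion molecule of vessels, had 587, 528 and 630 on shFoxd3 arrays, against 685, 873 and 682 on untreated arrays (-0.35 ± 0.15, adjusted p = 0.713, and -0.23 without untreated array 2). Tek, Kdr and Cdh5 differed by -0.36 ± 0.15, 0.39 ± 0.21 and -0.36 ± 0.22.

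Smooth muscle and pericyte genes gave 0 calls among 9 (median -0.18, and -0.04 without untreated array 2), with Rgs5, Acta2 and Mylk at 0.41 ± 0.22, 0.30 ± 0.22 and -0.20 ± 0.15 and Des in common with the satellite cell list. Intestinal epithelium genes gave 0 calls among 4 (median 0.15), and those were Tspan8 (0.46 ± 0.18), Lgals4 (-0.32 ± 0.22), Cdh1 (0.24 ± 0.24) and Muc2 (0.07 ± 0.22). Skin genes gave 0 calls among 3, with Krt10 at 0.23 ± 0.20, Krt14 at -0.02 ± 0.20, Trp63 at 0.00 ± 0.17 and Krt5 detected on 0 arrays. Of 9 T and NK cell genes only Il7r was tested (0.24 ± 0.27), and of 6 B and plasma cell genes none was, with Ms4a1 and Pax5 detected on 0 arrays.

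**Figure D5:**
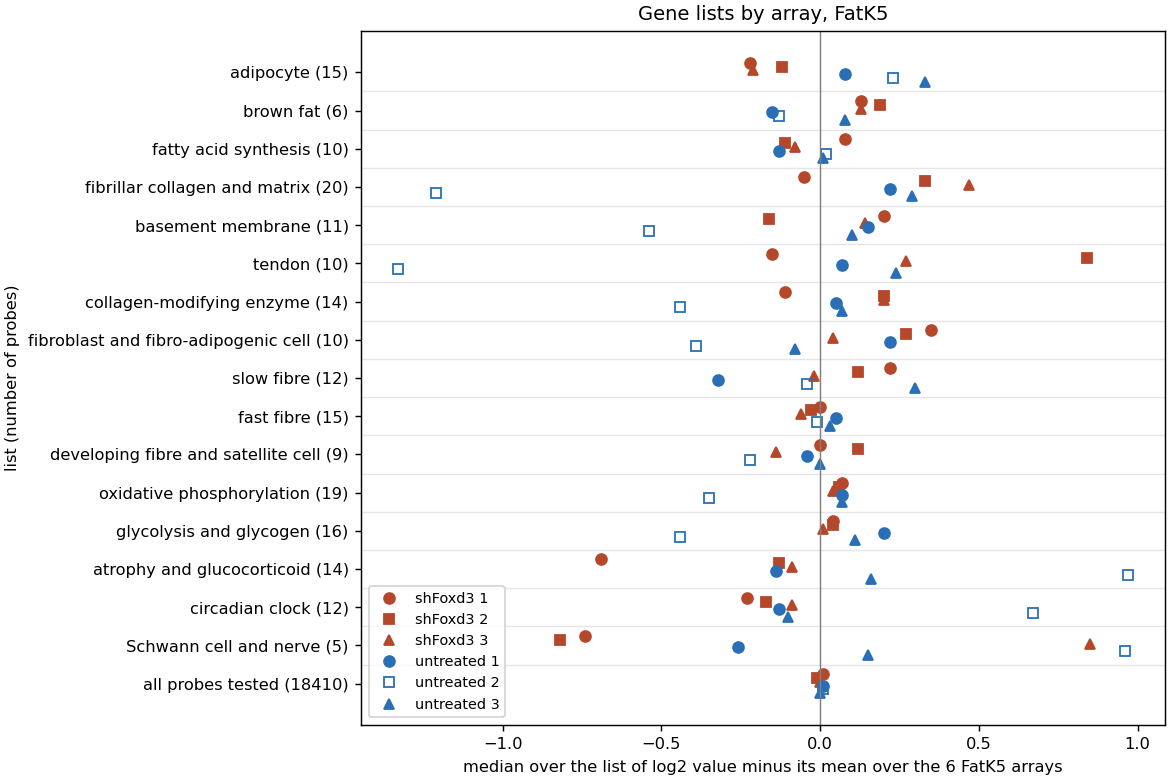
Median over each list of the log2 value minus its mean over the 6 FatK5 arrays, with the number of probes in brackets, for shFoxd3 arrays in red and untreated arrays in blue, untreated array 2 as an open square. Untreated array 2 lies at -1.21 for fibrillar collagen and matrix and at 0.97 for atrophy and glucocorticoid genes, while for adipocyte genes the shFoxd3 arrays lie at -0.22 to -0.12 and the untreated arrays at 0.08 to 0.33.

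The shFoxd3 change in FatK5 was also set against those in FatK1 and FatK7, which rest on other arrays. The untreated arrays of the labels differed too, so label and tissue cannot be told apart in these differences. In the fit of all 18 arrays the FatK5 change differed from the FatK1 change in 3 of 24789 probes (0.0121%), 1 higher (0.00403%) and 2 lower (0.00807%). It differed from the FatK7 change in 23 probes (0.0928%), 6 higher (0.0242%) and 17 lower (0.0686%). Without untreated array 2 of FatK1 and FatK5 these counts were 153 (13 higher and 140 lower) and 40 (19 higher and 21 lower). Most of the probes that differed from FatK7 were called in FatK7 and not in FatK5, among them those of the acute-phase genes Saa1, Saa2, Saa3 and Orm2. On FatK5 arrays the deposited signals of these acute-phase probes lay between -24.8 and 17.7, near background in both arms. Mybpc2 differed by 0.48 ± 0.42 in FatK5 and by 4.24 ± 0.42 in FatK1, a difference of -3.76 ± 0.60 (adjusted p = 0.0491). Its deposited signals on FatK1 arrays were 946, 807 and 179 with shFoxd3, against 11.4, 19.6 and 8.75 without.

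Against FatK7, a dimmer Thrsp probe differed by 0.10 ± 0.25 in FatK5 and by -2.39 ± 0.25 in FatK7, a difference of 2.49 ± 0.35 (adjusted p = 0.00529). That probe had signals between -6.76 and 20.6 on the FatK5 arrays, so its FatK5 values were near background. The interferon genes Gbp2 and Psmb8 differed by -2.26 ± 0.35 (adjusted p = 0.0146) and -1.20 ± 0.23 (adjusted p = 0.0493), and both were called higher in FatK7. Hal had deposited signals of 589, 906 and 669 on FatK7 arrays with shFoxd3, against 895, 838 and 1263 without. The FatK5 and FatK7 changes of Hal differed by 1.66 ± 0.27 (adjusted p = 0.021), a value that is no exact size because Hal was not detected on the untreated FatK5 arrays.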

How the data were processed

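Transcripts were measured with Illumina mouse bead chips. Per the labels' protocols, TRIzol and RNeasy columns served to isolate RNA, and an Ambion kit to make biotinylated cRNA. The deposited non-normalised table gave a background-subtracted signal intensity and a detection p-value per probe and array, per the file headers, and 25.1% to 26.3% of the intensities of each FatK5 array were negative. Nearly all deposited p-values fell on a grid of 936 steps, and 33 probes held a value off it. A deposited series matrix held intensities that were the same signals times 1 of 18 factors (0.733 to 1.525), and it entered 1 alternative. The software that made the files is not given in the sources used here.

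From these values, probes with long-printed signals were left out. On the 6 FatK5 arrays alone, limma 3.58.1 (R 4.3.3, statmod 1.5.0) corrected the background with neqc (detection p-values, offset 16), quantile normalised, and fitted the 2 arms with a trended prior variance. Tests were two-sided, adjusted over the 18410 probes tested, with a threshold of 0.05. The models were tested on simulated data. Each gene was read from its brightest probe, and symbols came from the platform annotation (34885 probes with 1 symbol, 18 with several, 10378 with none). Through Entrez identifiers 34807 probes matched RefSeq (GRCm38.p6), and 0 symbols changed. Tables and figures used Python 3.11.15, pandas 2.3.3, numpy 2.4.6 and matplotlib 3.10.9.

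A further allele of the shared genotype is not reported here. The comparison and the 33 lists were chosen with earlier results of these data known. The rule named Foxd3, Cdcp1 and sex-linked genes, at most 15 called probes in each direction, all members of the fat, connective tissue and fibre lists, and up to 4 genes of each other list by p. No set test was run. The number of arrays limits the precision. The arms share array numbers, which were not taken as pairs. Alternatives changed the scaling, offset, filter, probes left out, variance model, blocks and arrays. Promoters came from the RefSeq table.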

Additional observations from a re-analysis of the deposited data

Results flagged for a closer look

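In the fit of all 18 arrays, the shFoxd3 change in FatK5 differed from that in another label for 3 probes against FatK1 and 23 against FatK7, by the test of that difference. Label and tissue cannot be told apart here. For Tiam1 the FatK5 change exceeded the FatK1 change by 2.47 ± 0.31 (limma adjusted p = 0.00484) and the FatK7 change by 2.92 ± 0.31 (adjusted p = 0.000194). The FatK5 change lay below the FatK1 change for Mybpc2 (-3.76 ± 0.60, adjusted p = 0.0491) and for Lrmda (-1.69 ± 0.26, adjusted p = 0.0491).

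Against FatK7, genes that were called in FatK5 gave differences of -1.61 ± 0.29 for 1190007I07Rik (adjusted p = 0.0423), -1.71 ± 0.32 for C4b (adjusted p = 0.0493) and 1.66 ± 0.27 for Hal (adjusted p = 0.021), where Hal was not detected on the untreated FatK5 arrays. Of the rest, which were not called in FatK5, acute-phase genes gave -4.14 and -3.37 for 2 probes of Saa1, -3.72 for Saa2, -2.03 for Saa3 and -2.25 for Orm2. Interferon-inducible genes gave -2.26 for Gbp2, -1.83 for Gbp3, -1.86 for Gvin1 and -1.20 for Psmb8. The other lower differences were -3.92 for the metallothionein Mt2, -1.96 for Marco, -1.55 for Serpina3f, -1.49 for Ctla2b, -1.13 for Vldlr and -1.04 for Cd6. The other higher ones were 2.49 for Thrsp, 1.38 for Ndufab1, 1.36 for Slc30a10 and 1.22 for Cyp26a1. The probes of Saa1, Saa2, Saa3, Orm2, Marco, Serpina3f, Cd6, Thrsp, Slc30a10 and Cyp26a1 were near background on the FatK5 arrays. Their deposited signals there lay between -24.8 and 20.6. Their differences therefore carry the FatK7 change, and a fall in FatK5 could not have been seen. Of the probes not called in FatK5, all but that of Vldlr were called in FatK7 itself. The probes of 1190007I07Rik, C4b and Hal were not called in FatK7.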

How the results depend on the processing

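The count of 1 called probe was the same under median scaling, without background correction, with offset 50, with a filter for detection on all 6 arrays, without the off-grid probes, without the trend, with the replicate block, with the series matrix values, and with a fold minimum. It was 22 with all 18 arrays, 2 without a filter, 2 with array weights, 19 with the long-printed probes put back (16 of them long-printed) and 617 with the Xist split as a block. Leaving out 1 array at a time gave 0 to 4 calls. Both counts of 0 came from limma, without shFoxd3 array 2 (741 probes with an unadjusted p below 0.05) and without untreated array 3 (1108). The 4 calls without untreated array 2 were Tiam1, 2 Xist probes and 1190007I07Rik. The Tiam1 change ran from 2.42 to 2.71 over these fits.

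For the replicate block, same-numbered arrays correlated at 0.205, 0.116 and 0.066 in their deviations from the arm means. Arrays of different numbers correlated at -0.162 to 0.023, below each same-numbered value. The main fit did not take the numbers as pairs, and whether they are pairs was not tested. Under the block the count of calls was 1, with Tiam1 at an adjusted p of 0.0386.

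Median scaling, which puts the median change of all probes at 0.09, gave list medians of -0.28 (adipocyte), 0.37 (brown fat), 0.06 (fatty acid synthesis) and 0.11 (fast fibre). Series matrix values gave 0.07 (fatty acid synthesis) and 0.00 (fast fibre). The Xist split as a block gave 1.42 (fibrillar collagen), 0.69 (basement membrane) and 1.62 (tendon). For developing fibres the median was 0.14 with detection on all 6 arrays and -0.15 with array weights. Leaving out 1 array gave -0.49 to -0.38 for adipocyte, 0.02 to 0.36 for brown fat, -0.11 to 0.05 for fatty acid synthesis, -0.06 to 0.71 for fibrillar collagen, -0.12 to 0.28 for basement membrane, 0.17 to 0.93 for tendon, -0.02 to 0.25 for slow fibre, -0.08 to 0.00 for fast fibre and -0.10 to 0.15 for developing fibres. Differences from the FatK1 change numbered 3, and 153 without untreated array 2 of FatK1 and FatK5. Differences from the FatK7 change numbered 23, and 15 without a filter and 40 without those arrays. Where a value moved, the cause was not tested.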

Other observations

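Untreated array 2 stood apart in Actc1 and Mup2, which no list holds, and in Sln of the denervation and calcium lists, all chosen after their values were seen. Actc1, the cardiac actin that immature and regenerating muscle also makes, had normalised signals of 25220, 24055 and 15223 on shFoxd3 arrays, against 26406, 1609 and 8509 on untreated arrays (1.55 ± 0.78, limma adjusted p = 0.733, n = 3 each). Its second probe had 12772, 11371 and 5004 on shFoxd3 arrays, against 11462, 339 and 2703 on untreated arrays. Sln, sarcolipin, an inhibitor of the sarcoplasmic calcium pump, had 753, 417 and 517 on shFoxd3 arrays, against 177, 4946 and 440 on untreated arrays (-0.43 ± 0.93, adjusted p = 0.94). Mup2, a major urinary protein gene of the liver, had 1172, 774 and 652 on shFoxd3 arrays, against 968, 31.6 and 1455 on untreated arrays (1.06 ± 1.04, adjusted p = 0.85). Without untreated array 2 the changes were 0.49 for the first Actc1 probe, 0.92 for Sln and -0.49 for Mup2. Mup genes are near-identical copies, so their probes may share transcripts.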
